A study of Mus musculus with 2 samples.

Results

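The loci described here are the numbered microRNA genes of the mouse, from the let-7 genes to genes with numbers below 1000. Members were the microRNA rows of the Ensembl noncoding RNA table whose symbol starts with Mirlet7, or with Mir and a number below 1000. The imprinted microRNA locus of chromosome 12 was left out, and all positions are those of GRCm38. This gave 108 of the 191 microRNA rows and of the 1596 rows of the table in all. The number in a symbol follows the order of naming and is no measure of conservation. The members include 16 genes in introns of Sfmbt2 (Mir297, Mir466, Mir467 and Mir669 genes), a repeat-rich group known from rodents. The members lie on 20 chromosomes, 57 of them in an intron of another gene on the same strand, 19 over an annotated exon, 7 opposite a gene and 25 outside other genes.

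sRNA-seq was performed on primary murine fibroblasts (PMFs) from ear clippings of mice labelled C57BL/6 (C57BL/6-J, about 3 weeks old, in the study's methods), as 1 library per condition. AF25-high cells had received 3GA-AF25 (200 nM), an antisense oligonucleotide that raises the level of the snoRNA AF357425. AF25-low cells had received GM-AF25 (500 nM), a gapmer against the same snoRNA. Before transfection, which lasted 24 h, cells of both conditions were arrested with the CaMK-II inhibitor KN-93 (10 μM, 48 h). The chemistry and the dose of the oligonucleotide cannot be told apart from the level of AF357425, and a library with a control oligonucleotide was not analysed here. Library totals were estimated at 28856715 reads for AF25-high and 29103700 for AF25-low, of which the Ensembl table took 1.30% in AF25-high against 1.83% in AF25-low. With 1 library per condition, no difference between the conditions has a replicate check, and no p-value is given. Ratios are AF25-high over AF25-low. Their exact 95% intervals (Clopper-Pearson) describe counting error and nothing else.

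A microRNA gene is transcribed as a long primary transcript, from which Drosha cuts a hairpin and Dicer then cuts a short duplex of both arms of that hairpin. One strand of the duplex is loaded into an Argonaute protein and pairs with mRNAs, mainly through its seed, the bases from position 2 to 8. Neighbouring microRNA genes on the same strand often share a primary transcript. In fibroblasts, microRNAs of the let-7, miR-21, miR-27 and miR-143 families are common. Most microRNA reads of these libraries were counted by the authors against miRBase, and those counts were not analysed here. The values below are the few reads listed under the genes of the hairpins in the Ensembl table. Where on the hairpin these reads lie was not analysed, so they are not levels of mature microRNAs.

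The sequences show what the loci with the most reads have in common. RefSeq (GRCm38) held the hairpin of 79 members and at least 1 mature sequence of 78. The hairpins of Mir27a, Mir27b and Mirlet7b are printed with both mature arms in capitals, because these loci held most reads of the miR-27 and let-7 families. Mir27a lies on the plus strand of chromosome 8 from 84208672 to 84208758, Mir27b on the plus strand of chromosome 13 from 63300712 to 63300784, and Mirlet7b on the plus strand of chromosome 15 from 85707319 to 85707403.
Mir27a hairpin: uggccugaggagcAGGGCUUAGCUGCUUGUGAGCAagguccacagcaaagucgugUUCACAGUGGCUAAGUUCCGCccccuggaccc
Mir27b hairpin: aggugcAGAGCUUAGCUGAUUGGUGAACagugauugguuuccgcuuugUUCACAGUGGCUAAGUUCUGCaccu
Mirlet7b hairpin: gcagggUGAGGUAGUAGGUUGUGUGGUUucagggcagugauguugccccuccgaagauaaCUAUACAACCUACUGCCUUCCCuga

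Grouped by seed (capitals), the mature sequences below fall into the 2 families that took most reads, miR-27 and let-7, and 3 further families from the same clusters or with a shared seed. The miR-27 sequences differ at 1 position (C19U, counted from the 5′ end, miR-27a first). Compared with let-7b, the let-7c sequence differs at G17A, and let-7e at U9G, G17A and G19A. Mir7k, numbered among the miR-7 genes by its symbol, has a mature sequence that RefSeq names let-7k and that carries the let-7 seed.
miR-27a-3p: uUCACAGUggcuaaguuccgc
miR-27b-3p: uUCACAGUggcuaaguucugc
let-7b-5p: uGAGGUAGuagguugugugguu
let-7c-5p: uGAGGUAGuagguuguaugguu
let-7e-5p: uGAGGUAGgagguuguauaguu
let-7i-5p: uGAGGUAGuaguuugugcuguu
let-7g-5p: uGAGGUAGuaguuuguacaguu
let-7k: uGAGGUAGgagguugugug
miR-24-3p: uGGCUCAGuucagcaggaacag
miR-221-3p: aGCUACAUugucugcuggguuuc
miR-222-3p: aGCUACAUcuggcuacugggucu
miR-26a-5p: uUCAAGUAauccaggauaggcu

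Taken as a sum, the members had 21490 reads in AF25-high against 35500 in AF25-low, or 745 RPM in AF25-high against 1220 in AF25-low (reads scaled to the size of the library), a ratio of 0.611 (95% interval 0.600 to 0.621). Mir27a alone held 47.8% of these reads in AF25-high against 64.9% in AF25-low. Without Mir27a the sum was 11215 reads in AF25-high against 12469 in AF25-low, a ratio of 0.907 (0.884 to 0.931). The 5 loci with the most reads, Mir27a, Mir143, Mir24-2, Mir27b and Mirlet7b, made up 80.1% (AF25-high) and 86.1% (AF25-low). The sum is therefore mainly a statement on 1 locus. Summed in the same way, the Ensembl features outside the members stood at 0.717 (0.714 to 0.720). The other microRNA rows stood at 0.975 (0.961 to 0.989), or at 1.70 (1.67 to 1.74) without the row of Snord43. A sum below 1 was thus not particular to the members, and without Mir27a their ratio lay above that of the features outside them. The single loci are described below.

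Of the 108 members, 52 had at least 20 reads in the higher library and 56 had fewer. The ratio was below 1 for 34 of the 52 and above 1 for 18 (34.6%), against 52.5% above 1 of all 436 Ensembl features with as many reads. The median log2 ratio of the 52 loci was -0.29 (0.5 reads added to each value), that of the 29 other microRNA rows was 0.01 and that of all 436 features 0.06. At least 2-fold higher in AF25-high was 1 of the 52 loci (1.92%), where 16.1% of all features were. At least 2-fold lower were 9 of them (17.3%), where 12.2% of all features were. These 9 were Mir27a, Mir574, Mir146b, Mir26a-1, Mir222, Mir484, Mir30e, Mir182 and Mir297a-4. The interval lay below 1 for 21 loci (40.4%, against 26.6% of all features) and above 1 for 8 (15.4%, against 29.1%). An interval narrows with reads, so these last shares also depend on how many reads a locus has.

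The direction of small differences depends on how the libraries are scaled. Scaling to the Ensembl table's own total multiplies every ratio by 1.41 and moves the median of all features by 0.49 on the log2 scale, which turns ratios between 0.710 and 1 above 1. Scaling by the median of ratios multiplies every ratio by 0.868, moves that median by -0.20 and turns ratios between 1 and 1.15 below 1. Scaled to the total, 28 of the 52 loci were higher and 24 lower, and scaled by the median of ratios 14 were higher and 37 lower. The distance between the median of the 52 loci and that of all features is the same under each of these scalings.

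**Figure D1:**
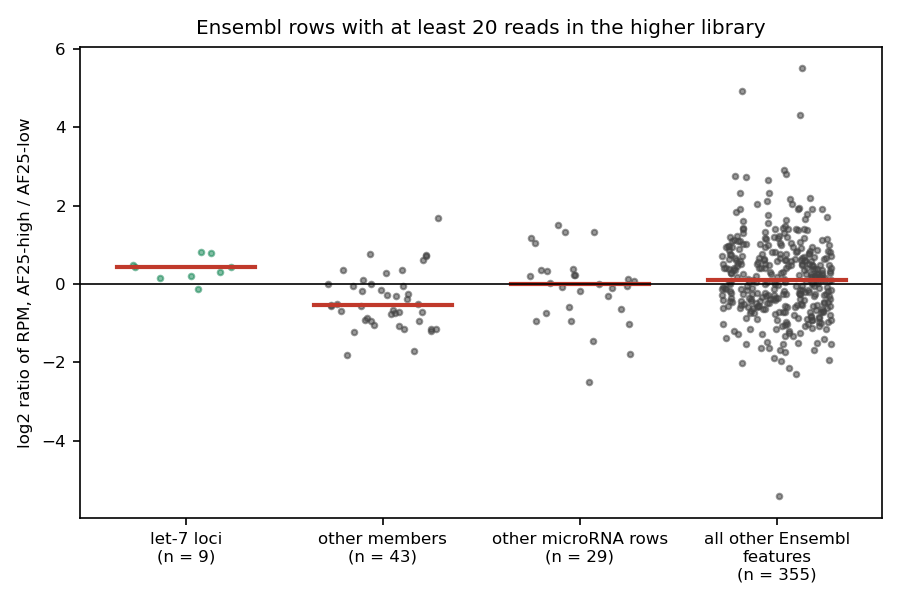
Log2 of the RPM ratio, AF25-high over AF25-low (y axis), for let-7 loci, the other members, the other microRNA rows and all other features of the Ensembl table reaching 20 reads in the higher library. Each point is 1 feature and the red line is the median, which is 0.43 for 9 let-7 loci, -0.54 for 43 other members, 0.01 for 29 other microRNA rows and 0.11 for 355 other features.

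The genes of the miR-23, miR-27 and miR-24 families form a pair of clusters in the mouse, Mir23a, Mir27a and Mir24-2 on chromosome 8 and Mir23b, Mir27b and Mir24-1 on chromosome 13. miR-27 is known to restrain adipocyte differentiation, and miR-23 and miR-24 are made with it. The 5 members of both clusters with at least 20 reads were lower in AF25-high, under each scaling run. With the main settings, 52.5% of all features were higher. Scaled to the table total, Mir27b (0.990) and Mir23a (0.949) were close to 1, while Mir27a stood at 0.633. Neighbours in a cluster are not separate observations. The chromosome 8 cluster spans 404 bp, from 84208518 to 84208921, and had 11714 reads in AF25-high against 25400 in AF25-low (ratio 0.465, 0.455 to 0.475).

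Mir27a had 10275 reads in AF25-high against 23031 in AF25-low (356 RPM in AF25-high, 791 in AF25-low), a ratio of 0.450 (0.440 to 0.461). Its neighbour Mir24-2 had 1310 reads in AF25-high against 2176 in AF25-low, a ratio of 0.607 (0.567 to 0.651). Mir23a, the first hairpin of the cluster, had 129 reads in AF25-high against 193 in AF25-low (0.674, 0.535 to 0.847). The locus in the middle of the cluster thus had the lowest ratio, and the reads of Mir27a per read of Mir24-2 were 7.84 in AF25-high against 10.6 in AF25-low, 0.741 times as many (0.689 to 0.797). Per read of Mir23a they were 79.7 in AF25-high against 119 in AF25-low, 0.667 times as many (0.531 to 0.842). These quotients within a cluster do not depend on the scaling. Mir24-2 and Mir23a differed from each other by less than counting error (0.901, 0.709 to 1.15).

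In the cluster on chromosome 13, Mir27b had 1404 reads in AF25-high against 2013 in AF25-low (48.7 RPM in AF25-high, 69.2 in AF25-low), a ratio of 0.703 (0.657 to 0.753). Mir23b had 47 reads in AF25-high against 80 in AF25-low (0.593, 0.404 to 0.860). Mir24-1 had 2 reads in AF25-high against 3 in AF25-low. The mature miR-24 sequence is the same from Mir24-1 and Mir24-2, and a read that matches both loci was assigned by the authors to the locus with more reads, so the split between these paralogs is uncertain. The whole cluster had a ratio of 0.699 (0.653 to 0.748), and the quotient of Mir27b to Mir23b did not differ between the libraries beyond counting error (1.19, 0.812 to 1.75). Mir27a and Mir27b share their seed but not their difference in size. Mir27a had 7.32 reads per read of Mir27b in AF25-high against 11.4 in AF25-low, 0.640 times as many (0.595 to 0.688). The miR-27-3p sequences differ only at C19U, and a read of that arm that does not cover it would match both loci. This quotient therefore also depends on how shared reads were assigned.

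**Figure D2:**
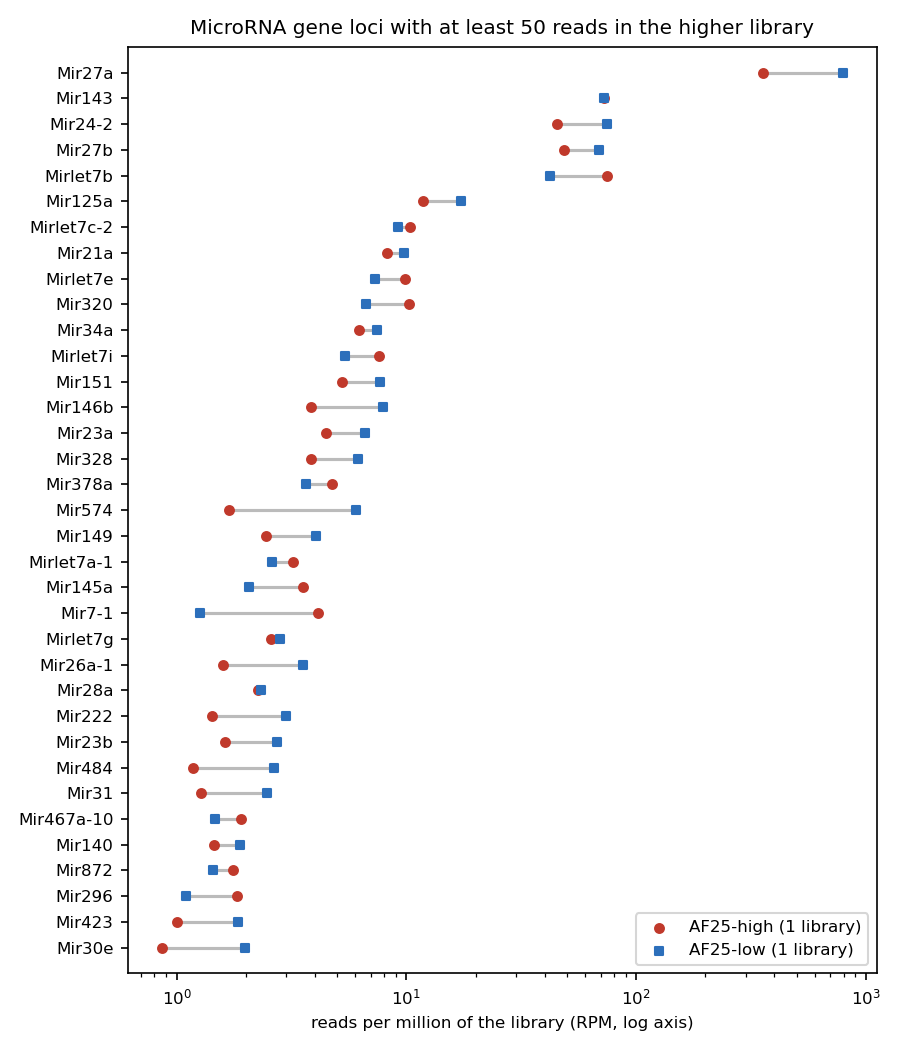
RPM on a log axis (x axis) of the 35 members reaching 50 reads in the higher library, ordered by their reads in both libraries, with AF25-high as red circles and AF25-low as blue squares, 1 library each. Mir27a stands apart at 356 RPM (AF25-high) and 791 RPM (AF25-low), and Mirlet7b, Mirlet7e, Mirlet7i and Mir320 are among those with the red circle to the right.

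The let-7 loci were mostly higher in AF25-high. let-7 microRNAs accumulate as cells differentiate and repress growth genes such as Hmga2 and Ras genes, and their hairpins are bound by Lin28 in stem cells. There are 12 loci with a let-7 name or seed among the members (10 Mirlet7 genes, Mir98 and Mir7k). They had 3231 reads in AF25-high against 2113 in AF25-low, or 112 RPM in AF25-high against 72.6 in AF25-low, a ratio of 1.54 (1.46 to 1.63). Mirlet7b held most of them, and without it the ratio was 1.24 (1.13 to 1.36). Of the 9 let-7 loci with at least 20 reads, 8 were higher and 1 was lower in AF25-high (52.5% of all features were higher), and the interval lay above 1 for 4 and held 1 for 5 (29.1% of all features lay above). Scaled by the median of ratios the sum was still above 1 (1.34), while Mirlet7c-2 was below 1, Mirlet7f-1 was equal in both libraries, and the interval lay above 1 only for Mirlet7b, 1 of the 4. By TMM it lay above 1 for 2, Mirlet7b and Mirlet7i. Scaled to the table total, Mirlet7g was above 1 as well.

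Mirlet7b had 2145 reads in AF25-high against 1229 in AF25-low (74.3 RPM in AF25-high, 42.2 in AF25-low), a ratio of 1.76 (1.64 to 1.89). Its upstream neighbour Mirlet7c-2, in a cluster of 801 bp, had 298 reads in AF25-high against 268 in AF25-low, with an interval that held 1 (1.12, 0.948 to 1.33). Both lie over exons of the long noncoding RNA gene Lncppara. There were 7.20 reads of Mirlet7b per read of Mirlet7c-2 in AF25-high against 4.59 in AF25-low, a quotient 1.57 times as large (1.31 to 1.89). The difference within this cluster is therefore larger than counting error, although both hairpins are annotated on the same strand of the same gene.

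Mirlet7i on chromosome 10 had 219 reads in AF25-high against 158 in AF25-low (1.40, 1.13 to 1.73), and Mirlet7e on chromosome 17 had 284 in AF25-high against 212 in AF25-low (1.35, 1.13 to 1.62). Mir7k had 47 reads in AF25-high against 27 in AF25-low (1.76, 1.07 to 2.93). For the others the interval held 1. Mirlet7a-1 had 93 reads in AF25-high against 76 in AF25-low (1.23, 0.902 to 1.69) and its neighbour Mirlet7f-1 had 24 in AF25-high against 21 in AF25-low (1.15, 0.615 to 2.18). Mirlet7a-2 on chromosome 9 had 34 reads in AF25-high against 25 in AF25-low (1.37, 0.795 to 2.40). The 1 locus below 1 was Mirlet7g in an intron of Wdr82, with 74 reads in AF25-high against 82 in AF25-low (0.910, 0.656 to 1.26). Mirlet7c-1, Mirlet7f-2 and Mir98 had 4, 2 and 7 reads in AF25-high against 8, 6 and 1 in AF25-low, too few for a direction. let-7c is the same from Mirlet7c-1 and Mirlet7c-2, and let-7f from Mirlet7f-1 and Mirlet7f-2. The let-7a sequence of Mirlet7a-1 also stands in the hairpin of Mirlet7a-2, and the 3p arms of Mirlet7a-1 and Mirlet7c-2 are identical, so values of these single loci depend on how shared reads were assigned.

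Set against the remaining members, the let-7 loci made up 15.0% of all members' reads in AF25-high against 5.95% in AF25-low. Their reads per read of the other members were 2.80 times as many in AF25-high (2.64 to 2.96). Without Mir27a among the others the quotient was 1.98 (1.86 to 2.11), and without Mirlet7b as well it was 1.59 (1.45 to 1.75). No scaling of the libraries enters these values.

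**Figure D3:**
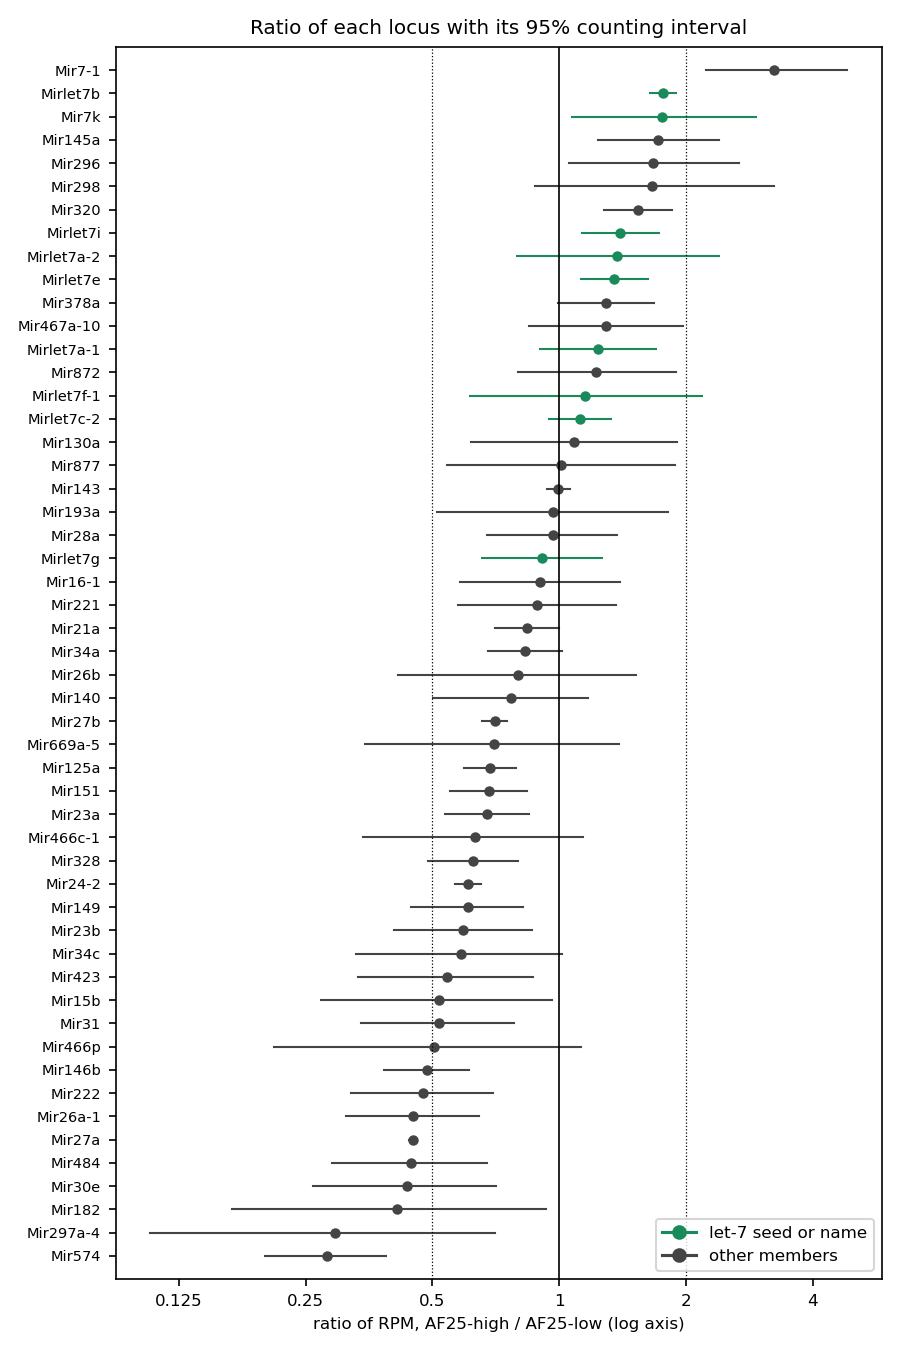
RPM ratio, AF25-high over AF25-low, on a log axis (x axis) for the 52 members reaching 20 reads in the higher library, ordered by the ratio. Points are single loci, horizontal lines are exact 95% intervals from counting error, green marks let-7 loci, and the dotted lines mark a ratio of 0.5 and 2, with Mir7-1 at 3.24 at the top and Mir574 at 0.281 at the bottom.

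Grouping neighbours on the same strand within 10 kb gave 17 clusters with 50 members, and 58 members stood alone. Of 14 pairs of loci from the same cluster with at least 20 reads each in their higher library, the quotient of reads differed between the libraries beyond counting error for 8. Some loci enter more than 1 pair, and pairs of other features were not compared. For single ratios, the interval lay above 1 for 29.1% and below 1 for 26.6% of all 436 features, so the count of pairs does not set these clusters apart. Besides the pairs above, this held for Mir125a and Mirlet7e, which lie with Mir99b in Spaca6 on chromosome 17 from 17830188 to 17830879. miR-125 and let-7 genes are neighbours in many animals. Mir125a had 341 reads in AF25-high against 502 in AF25-low (0.685, 0.595 to 0.788), while Mirlet7e was the higher in AF25-high. The quotient of Mir125a to Mirlet7e was 1.20 in AF25-high against 2.37 in AF25-low, 0.507 times as large (0.402 to 0.639). Mir99b had 5 reads in AF25-high against 3 in AF25-low. The sum of this cluster (ratio 0.886, 0.795 to 0.988) combines both directions.

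miR-143 and miR-145 are known from smooth muscle cells and fibroblasts, where they come from 1 primary transcript. Mir143 on chromosome 18 had 2085 reads in AF25-high against 2112 in AF25-low (72.3 RPM in AF25-high, 72.6 in AF25-low), a ratio of 0.996 with the narrow interval of 0.937 to 1.06. Mir145a, which lies in the same cluster, had 102 reads in AF25-high against 60 in AF25-low (1.71, 1.23 to 2.40). There were 20.4 reads of Mir143 per read of Mir145a in AF25-high against 35.2 in AF25-low, 0.581 times as many (0.413 to 0.812). Mir145b, a gene elsewhere on the chromosome, had 1 read in AF25-high against none in AF25-low.

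Mir221 and Mir222, whose microRNAs share a seed and repress the cell-cycle inhibitor p27, are neighbours on chromosome X. Mir222 had 41 reads in AF25-high against 87 in AF25-low (0.475, 0.320 to 0.697) and Mir221 had 43 in AF25-high against 49 in AF25-low (0.885, 0.574 to 1.36). The quotient of Mir221 to Mir222 was 1.86 times as large in AF25-high (1.03 to 3.36). By contrast, Mir296 and Mir298 on chromosome 2, in the imprinted Gnas region, had nearly the same ratio. Mir296 had 53 reads in AF25-high against 32 in AF25-low (1.67, 1.06 to 2.68), and Mir298 had 28 in AF25-high against 17 in AF25-low (1.66, 0.878 to 3.23). Mir34b and Mir34c, induced by p53 like Mir34a, summed to 25 reads in AF25-high against 44 in AF25-low (0.573, 0.336 to 0.957).

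**Figure D4:**
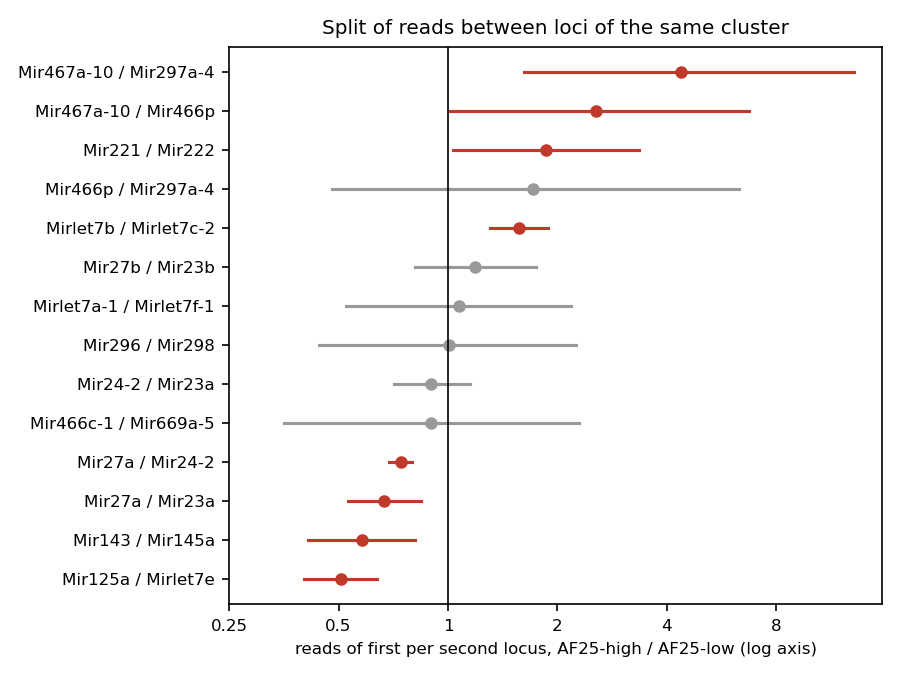
Reads of the first locus per read of the second in AF25-high, divided by the same quotient in AF25-low, on a log axis (x axis), for 14 pairs from the same cluster (y axis). Lines are exact conditional 95% intervals, red where they do not hold 1, as for Mir125a to Mirlet7e at 0.507 and Mirlet7b to Mirlet7c-2 at 1.57, and grey where they hold 1.

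Among the lone loci of fibroblast microRNAs, Mir21a on chromosome 11, over an exon of Vmp1, had 237 reads in AF25-high against 285 in AF25-low (0.839, 0.703 to 1.00). miR-21 is a microRNA of fibrosis. Mir31 had 37 reads in AF25-high against 72 in AF25-low (0.518, 0.339 to 0.781). Mir34a had 179 reads in AF25-high against 218 in AF25-low, with an interval that held 1 (0.828, 0.676 to 1.01). Scaled to the Ensembl table's own total, Mir21a and Mir34a were above 1, and Mir31 was not.

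The largest ratio among the loci with at least 20 reads was that of Mir7-1, in an intron of Hnrnpk on chromosome 13 from 58392779 to 58392886. It had 119 reads in AF25-high against 37 in AF25-low, a ratio of 3.24 (2.23 to 4.83). Whether these reads also match Mir7-2, which is not a member, was not tested. Reads of Mir7-1 per read of Mir143 were 3.26 times as many in AF25-high (2.22 to 4.87). As Mir143 had a ratio of 0.996, this quotient repeats the ratio of Mir7-1. miR-7 is abundant in neuroendocrine tissues, while Hnrnpk, its host, is expressed in most cells. Its mature sequences are shown with the seed in capitals.
miR-7a-5p: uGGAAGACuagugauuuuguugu
miR-7a-1-3p: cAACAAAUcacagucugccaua

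The smallest ratio among the loci with at least 20 reads belonged to Mir574, in an intron of Fam114a1 on chromosome 5 from 64970318 to 64970395, with 49 reads in AF25-high against 176 in AF25-low (0.281, 0.200 to 0.387). One of its arms is a run of GU repeats, and whether its reads also match elsewhere was not tested.
miR-574-5p: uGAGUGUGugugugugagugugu
miR-574-3p: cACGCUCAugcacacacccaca

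Further loci in introns were mostly lower in AF25-high. Mir146b, whose microRNA dampens NF-κB signalling, lies in Mfsd13a and had 111 reads in AF25-high against 231 in AF25-low (0.485, 0.383 to 0.610). Mir26a-1 in Ctdspl had 46 reads in AF25-high against 103 in AF25-low (0.450, 0.311 to 0.644), and its relative Mir26b, in the paralogous host gene Ctdsp1, had 19 in AF25-high against 24 in AF25-low (0.798, 0.414 to 1.52). The miR-26 loci, which share a seed, summed to a ratio of 0.516 (0.377 to 0.701). Mir30e in Nfyc had 25 reads in AF25-high against 58 in AF25-low (0.435, 0.261 to 0.706).

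Mir151 in Ptk2, the gene of focal adhesion kinase, had 151 reads in AF25-high against 224 in AF25-low (0.680, 0.549 to 0.839). Mir149 in Gpc1 had 71 in AF25-high against 118 in AF25-low (0.607, 0.446 to 0.821). Mir378a, in the gene of the metabolic coactivator Ppargc1b, pointed the other way with 137 reads in AF25-high against 107 in AF25-low, and its interval held 1 (1.29, 0.995 to 1.68). Mir328, opposite Elmo3, had 111 reads in AF25-high against 179 in AF25-low (0.625, 0.489 to 0.797). Mir15b in Smc4 had 17 reads in AF25-high against 33 in AF25-low (0.520, 0.271 to 0.960). Ratios of the 6 further loci with at least 20 reads (Mir28a, Mir872, Mir140, Mir130a, Mir423 and Mir193a) ran from 0.542 for Mir423, in an intron of Nsrp1, to 1.22 for Mir872, and only the interval of Mir423 did not hold 1 (0.333 to 0.866). Mir16-1 over Dleu2, a locus of microRNAs that restrain the cell cycle, had 42 in AF25-high against 47 in AF25-low (0.901, 0.580 to 1.40).

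By position and again from 20 reads on, the log2 ratio had a median of -0.56 over 23 intronic loci (7 higher, 16 lower) and of -0.03 over 14 loci outside other genes (6 higher, 8 lower). The 12 loci over exons had a median of -0.20 (5 higher, 7 lower), and the 3 loci opposite another gene were all lower. The median was -0.27 for the 27 lone loci and -0.50 for the 25 loci in clusters, or -0.09 for the 20 clustered loci outside Sfmbt2. The share of higher loci was 30.4% in introns, 41.7% over exons and 42.9% outside other genes. It was 34.6% of all 52 loci and 52.5% of all 436 features. The intronic loci include 5 in Sfmbt2, and the 18 in other genes had a median of -0.44 (6 higher, 12 lower). These differences were not tested. Whether the hosts' own RNA differed was not analysed here.

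Some hairpins are made without Drosha. Mir320 and Mir484 are known for hairpins that begin at the capped start of a transcript, and the hairpin of Mir877 is a short intron released by splicing from Abcf1. They differed in direction. Mir320 had 297 reads in AF25-high against 195 in AF25-low (1.54, 1.28 to 1.85), whereas Mir484 had 34 in AF25-high against 77 in AF25-low (0.445, 0.288 to 0.675). The quotient of Mir320 to Mir484 was 8.74 in AF25-high against 2.53 in AF25-low, 3.45 times as large (2.17 to 5.54). Mir877 had 23 reads in each library.

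The genes in introns of Sfmbt2, an imprinted gene of the placenta, span chromosome 2 from 10467229 to 10517164 and summed to 144 reads in AF25-high against 203 in AF25-low (0.715, 0.574 to 0.890). Mir467a-10 had the most, with 55 reads in AF25-high against 43 in AF25-low (1.29, 0.850 to 1.97). Mir297a-4 had 7 reads in AF25-high against 24 in AF25-low (0.294, 0.107 to 0.704), and Mir466p had 10 in AF25-high against 20 in AF25-low. Mir466c-1 had 20 reads in AF25-high against 32 in AF25-low, and Mir669a-5 had 16 in AF25-high against 23 in AF25-low. Relative to Mir467a-10, both Mir466p and Mir297a-4 had fewer reads in AF25-high, with quotients of Mir467a-10 to them 2.56 (1.01 to 6.75) and 4.39 (1.62 to 13.1) times as large. How reads were divided among similar genes of these repeat families is uncertain.

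Of the 56 members under 20 reads, 21 were higher and 35 were lower in AF25-high by RPM. The same share was not computed for all features under 20 reads, so this count does not set these members apart. Together the 56 had 332 reads in AF25-high against 372 in AF25-low (0.900, 0.774 to 1.05). The cluster of Mir183, Mir96 and Mir182, known from sensory organs, had all 3 loci lower, with 3, 4 and 9 reads in AF25-high against 10, 16 and 22 in AF25-low, a ratio of the sums of 0.336 (0.178 to 0.603). Of these 3, Mir182 reached 20 reads in AF25-low and is not among the 56. Mir106b and Mir93, paralogs of the mir-17-92 cluster in Mcm7, had 14 and 9 reads in AF25-high against 4 and 11 in AF25-low (sum 1.55, 0.773 to 3.19). Mir351 had 17 reads in AF25-high against 6 in AF25-low, while its neighbour Mir322 had 3 in AF25-high against 11 in AF25-low, so that their sum was 20 reads in AF25-high against 17 in AF25-low (1.19, 0.590 to 2.41). Mir29a and Mir29b-1, which repress collagen genes, summed to 22 reads in AF25-high against 17 in AF25-low (1.31, 0.662 to 2.62). Mir129-2, Mir669a-3, Mir669e, Mir145b and Mir297-1 had 0 reads in 1 library and at most 2 in the other, which gives no fold. Mir200a had 6 reads in AF25-high against 0 in AF25-low, and the lower limit of its interval was 1.19.

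Lists of microRNAs of known cell types were set beside these values. Of 23 microRNA genes common in fibroblasts and other mesenchymal cells, 15 had a row, with 15741 reads in AF25-high against 30189 in AF25-low (0.526, 0.516 to 0.536). Of these, 11 had at least 20 reads, 1 was higher (Mir145a) and 10 were lower in AF25-high, with a median log2 ratio of -0.57, where 52.5% of all features were higher. Scaled to the table total, 4 were higher and 7 lower, and scaled to the microRNA reads of miRBase 2 were higher and 9 lower. The 11 are not separate observations, since 5 of them lie in the clusters of Mir27a and Mir27b, and others in those of Mir143 and Mir221. The list holds no let-7 loci, although let-7 is also common in fibroblasts, and 8 of 9 let-7 loci were higher. Mir27a made up most of the reads of this list, and without it, a choice made after seeing the data, the ratio was 0.770 (0.743 to 0.798). For other cells few genes had a row. The rows hold only reads outside the miRBase counts, so a missing row does not show that a microRNA or a cell type was absent. Of the lists for epithelium, blood cells, endothelium, striated muscle, neurons and liver, only Mir200a (epithelium) and Mir132 (neurons, 5 reads in AF25-high against 1 in AF25-low) had a row. None of 7 blood, 2 endothelial, 11 striated muscle or 1 liver genes was in the rows used. Of 3 genes for pancreas and pituitary, Mir7-1 was the only member. In RNA of whole cultures, fewer cells of a type and less RNA per cell cannot be told apart.

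Among lists of families, no member was a Mir181, Mir10, Mir290 or Mir302 gene or the hypoxia gene Mir210. Here too, a missing row does not show that the microRNA was absent. The p53 targets Mir34a, Mir34b and Mir34c together had a ratio of 0.785 (0.651 to 0.947). Of 6 Mir15 and Mir16 genes 2 had a row (sum 0.744, 0.522 to 1.05), of 15 in the mir-17-92 group 2, and of 4 Mir29 genes 2. Of 6 Mir30 genes 3 had one (31 reads in AF25-high against 72 in AF25-low, 0.434, 0.275 to 0.670). Of the Mir99, Mir100 and Mir125 genes 4 of 6 had one, with Mir125a as the only locus above 20 reads (sum 0.710, 0.619 to 0.813). Of the Mir199 and Mir214 genes only Mir199b had a row (7 reads in AF25-high against 11 in AF25-low).

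Properties of the hairpin showed little relation to the ratio. Over 40 loci with a RefSeq hairpin and at least 20 reads, Spearman's rho of the log2 ratio was -0.24 with GC content (39.3% to 68.2%) and 0.22 with length (64 to 110 bases). The loop between both mature arms gave a rho of 0.39 over 33 loci. This rests on the let-7 loci, which have loops of 23 to 34 bases (median 32), and over the 26 other loci rho was 0.08. All points come from the same 2 libraries and members of a cluster are not independent, so these are descriptions. The reads of a locus over both libraries had a rho of 0.11 with its log2 ratio over the 52 loci.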

How the data were processed

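The members and lists were chosen with earlier results of these data known. Reads were aligned by the authors to GRCm38 and small RNA databases (sRNAbench, Bowtie). They counted sense reads, assigned a read with several matches to the locus with the most reads, and divided the counts by a size factor per library. The deposited signal values are therefore normalized counts. For these tools, versions were not given in the sources used here. Deposited fold and p-value columns of the authors, from a comparison without replicates, were not used, nor was the RNAcentral table.

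Each column was divided by its smallest value above 0, which gave whole reads for 100% of values (tolerance 1e-06). RPM used library totals obtained as medians of tRNA reads over the RPM that the study lists, over 38 anticodons of 100 RPM or more in each library. They are thus estimates. GENCODE M21 (GRCm38) named 1571 of 1596 rows, and 3 microRNA rows had no name.

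Ratios carry exact Clopper-Pearson 95% intervals, which cover counting error only, since reads are not independent molecules. For counts of loci with no minimum of reads, a library at 0 was set to a floor of 3 reads, and loci with at most 3 reads in the other library were left out. Quotients between loci are odds ratios with exact conditional 95% intervals. Those between loci that are not neighbours, and those of the let-7 sum, were added to the planned pairs within clusters. A count test was not possible with 1 library per condition. Neighbours within 10 kb on the same strand formed a cluster, with 50 kb as the alternative. Seeds are bases 2 to 8 of either mature arm in RefSeq. Shared mature sequences were sought among the members only. Whether reads of a member, such as Mir26a-1 or Mir16-1, also match genes without a row was not tested. The members named were loci of 100 reads or more in the higher library, the 6 highest and 6 lowest ratios at 50 reads, their clusters and members of lists with at least 20 reads. Others, such as Mir7k, Mir877, Mir26b and those under 20 reads, were named after their values were seen, as was the set that adds Mir7k to the let-7 list. Computations ran in Python 3.11.15 (scipy 1.17.1, pandas 2.3.3, numpy 2.4.6; plots with matplotlib 3.10.9), with edgeR 4.0.16 in R 4.3.3 for the TMM scaling. Alternatives were 4 other scalings, minimums of 50 reads or none, a pseudocount of 1 read and sums without the most abundant loci. The calculation of the interval was checked on simulated Poisson counts, where it held the true ratio for 94.8% of 439 features. Such counts hold no variation between libraries, so this says nothing on how well the intervals cover that variation.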

Additional observations from a re-analysis of the deposited data

How the results depend on the processing

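The sum of all members was below 1 under every alternative run. With the main settings, the sum of the Ensembl features outside the members was below 1 as well (0.717). For the members, the ratio of 0.611 became 0.530 when scaled by the median of ratios, 0.541 by TMM and 0.860 to the total of the Ensembl table. It was 0.907 without Mir27a and 0.964 without Mir27a, Mir143 and Mir24-2. The sum of the let-7 loci (1.54) was above 1 throughout, with 1.34 by the median of ratios, 1.37 by TMM, 2.17 to the table total and, chosen after seeing the data, 1.24 without Mirlet7b. Loci at least 2-fold higher were 1, but 7 when scaled to the table total and 10 with no minimum of reads, and those at least 2-fold lower were 9, but 2 and 20 under the same settings. Over all features, these shares were computed with the main settings only (16.1% higher, 12.2% lower). The other counts therefore have no background beside them and describe the setting, not the members. The median log2 ratio of -0.29 became -0.50 by the median of ratios and -0.47 by TMM, and turned to 0.20 when scaled to the table total, a constant shift that also moves the median of all features to 0.55. That scaling also turned Mir21a (1.18) and the cluster of Mir99b, Mirlet7e and Mir125a (1.25). Scaling to the microRNA reads of miRBase, a minimum of 50 reads and a pseudocount of 1 read moved none of these beyond the limits used here. Of 76 values for single loci, clusters and seed families, 36 left their 95% interval and 2 turned with the table total, 15 left it with the median of ratios and 14 with TMM. Joining neighbours within 50 kb gave 18 clusters and united the Sfmbt2 genes.

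No paired analysis was possible because each condition has 1 library. Leaving out a replicate does not apply for the same reason. Library totals are estimates, the reads lie at positions on the hairpin that were not analysed, and loci under 20 reads have intervals too wide for a direction in most cases.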
